A study of Mus musculus with 6 samples.

Results

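Expression of 9 genes that encode transcription factors of myeloid development was examined in LSK cells of Gfi1 knockout-labelled and wild-type mice. The genes were the C/EBP family members Cebpa, Cebpb, Cebpd, Cebpe and Cebpg, the PU.1 gene Spi1, the interferon regulatory factor genes Irf8 and Irf4, and Runx1. All array features annotated with one of these symbols and no other were taken, which gave 18 probe sets for 8 of the 9 genes, out of 12393 genes with such a probe set. No probe set was named Cebpe in the annotation used here, so Cebpe is not analysed here. LSK cells are the lineage-negative, Sca-1-positive, Kit-positive cells of bone marrow, in which stem cells and early progenitors are enriched. The arrays were 3 from cells labelled as Gfi1 knockout and 3 from cells labelled as Gfi1 wild type, with the sample numbers 5, 7 and 8 in each group. All 6 samples were sorted by flow cytometry and amplified in the same 2-round protocol. The labels give neither the knockout allele nor the age, strain or sex of the mice, and they do not say whether a sample was 1 mouse or a pool, so the p-values reflect only how these samples vary, which may be technical.

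C/EBP proteins are leucine zipper factors that bind DNA as dimers, and C/EBPα is required for the step from multipotent myeloid progenitors to granulocyte and monocyte progenitors. PU.1 is an ETS-family factor needed for both myeloid and B lymphoid cells, and its dose biases progenitors toward one fate or another. IRF8 and IRF4 bind DNA weakly alone and often act on composite sites with PU.1, while RUNX1 acts upstream of PU.1 in the formation of definitive blood. Gfi1 is a zinc finger repressor that is known to oppose PU.1 and to favour granulocytes over monocytes.

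Signals are the authors' MAS5 values on a linear scale in arbitrary units, and levels of different probe sets are not compared with each other. The median array signal lay between 286 and 335. The array carries 27 control probe sets for transcripts of Bacillus, which the cells do not contain. The brightest of them lay between 100.2 and 161.6 on the 6 arrays and is called the control level here. Only the brightest 60% of probe sets by mean log2 signal were tested, with limma, and the threshold was an adjusted p of 0.05. Differences are given as log2(signal + 16), knockout-labelled minus wild type, together with limma's standard error (SE), and the fold of dim probe sets is understated on that scale. Probe sets of a gene are numbered by falling brightness. Kit, by which LSK cells are defined, averaged 4225 ± 624 on knockout-labelled and 6899 ± 960 on wild-type arrays, with SD and n = 3 each, and Cd34, a progenitor marker, ran from 13294 to 18188 and from 15603 to 20461. Over 10 markers of LSK cells the summed signal was 31445 to 36010 on knockout-labelled and 37762 to 45390 on wild-type arrays, and 3 of the 10 fell (Kit, Flt3 and Hlf). No probe set had Ly6a, the Sca-1 gene, as its only symbol. The Gfi1 probe set was not lower in the group labelled knockout, with signals of 692, 1163 and 1737 on knockout-labelled arrays 5, 7 and 8 against 632, 608 and 723 on wild-type arrays 5, 7 and 8. Whether the allele removes the sequence that this probe set reads is not given in the sources used here. Every direction given here therefore rests on the array labels.

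None of the factors passed the threshold. Of the 18 probe sets 13 were bright enough to be tested, for 6 of the genes, and 0 were called higher and 0 lower by limma at an adjusted p under 0.05. Over all 13575 probe sets tested, 1.44% were called higher and 2.19% lower, so a count of 0 among 13 is near the background. At an unadjusted p under 0.05, 1 of the 13 was higher (Cebpd) and 0 were lower, where 1232 and 1429 of all 13575 were. With the replicate block 1 was higher and 2 were lower (both Runx1), but the share over all probe sets was not counted for that fit. The block also gave more calls over all probe sets, with 320 higher and 479 lower at a limma adjusted p under 0.05. The main fit gave 196 and 297, so these blocked member counts are not read as a result about Runx1. The count of calls was also 0 in each of 17 alternative fits. The median difference of the 13 was 0.08, against -0.01 over all probe sets tested, and the median of their sizes without sign was 0.29, against 0.24. The groups did not overlap for 3 tested probe sets that were higher and 1 that was lower in knockout-labelled cells, which is 23.1% and 7.69% of the 13. Over all tested probe sets these shares were 11.9% and 12.1%. Since RNA of whole sorted samples was measured, a change in the share of cells that express a factor and a change in RNA per cell cannot be told apart.

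**Figure D1:**
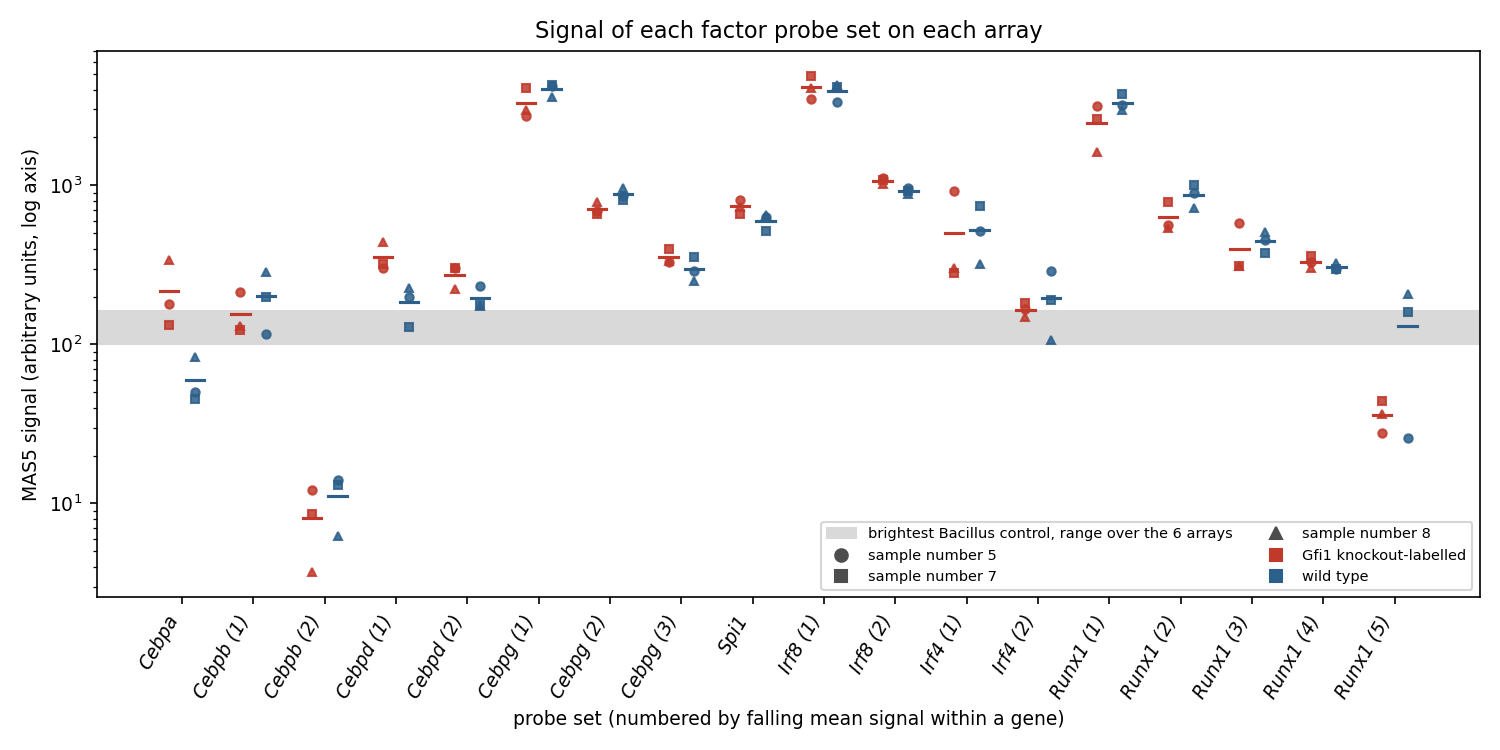
MAS5 signal (log axis, arbitrary units) of the 18 probe sets of 8 factor genes on each of the 6 arrays, knockout-labelled left and wild type right, with group means as bars, sample numbers as symbols and the range of the control level shaded. The 3 wild-type arrays of Cebpa lie below the control level and below all 3 knockout-labelled arrays, and the groups lie close together for Irf8 (1).

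Among the C/EBP genes, Cebpa lay higher on the knockout-labelled arrays, in a range of dim signals. C/EBPα drives granulocyte and monocyte commitment and halts the cell cycle. Its 1 probe set had signals of 180, 133 and 340 on knockout-labelled arrays 5, 7 and 8, against 50.1, 45.4 and 83.6 on wild-type arrays 5, 7 and 8. All 3 knockout-labelled arrays were above all 3 wild-type arrays, but 0 of 3 wild-type arrays and only 2 of 3 knockout-labelled arrays exceeded the control level of their own array. The wild-type level is therefore only a bound. Against the wild-type arrays' control levels the knockout-labelled signals stood 1.58-fold higher. This is not a firm minimum, since knockout-labelled array 7 (133) was below its own control level of 157.8. Its mean signal fell under the brightness filter, so Cebpa was not tested in the main fit. In the fit without the filter the difference was 1.56 ± 0.43 (95% interval 0.62 to 2.51), with an unadjusted p of 0.00414 and a limma adjusted p of 0.125. With the sample number as a replicate block and no filter the limma adjusted p was 0.0948, an alternative chosen after seeing the data. The difference was positive for each sample number, at 1.57, 1.28 and 1.84 for numbers 5, 7 and 8, and it ran from 1.21 without knockout-labelled array 8 to 1.84 without knockout-labelled array 7.

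Cebpd, a C/EBP gene that cytokines and acute inflammation induce, lay higher on the knockout-labelled arrays with both of its probe sets. The first had signals of 302, 320 and 439 on knockout-labelled arrays 5, 7 and 8, against 198, 129 and 226 on wild-type arrays 5, 7 and 8. The groups did not overlap, and the means were 354 ± 74.7 and 184 ± 49.9 (SD, n = 3 each). The difference was 0.90 ± 0.30 (95% interval 0.26 to 1.54), which did not pass (unadjusted p = 0.00941, limma adjusted p = 0.116), and the adjusted p ran from 0.0655 with the replicate block to 0.358. The second probe set, with 301, 302 and 222 on knockout-labelled arrays against 234, 177 and 174 on wild-type arrays, overlapped between the groups and stood at 0.46 ± 0.28 (limma adjusted p = 0.403). The 2 probe sets shared the sign of the difference and correlated at 0.56 over the 6 arrays, which also share the group difference.

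Cebpb, which is needed for granulocyte production in infection and for macrophage functions, had 2 dim probe sets that were not tested. The brighter had signals of 212, 124 and 131 on knockout-labelled arrays 5, 7 and 8, against 116, 200 and 286 on wild-type arrays 5, 7 and 8. The groups overlapped and the sign of the difference changed with the sample number, at 0.79, -0.63 and -1.04 for numbers 5, 7 and 8. The other did not exceed 14.1 on any array and was below the control level on all 6. Neither probe set measured a difference for Cebpb at this brightness (0.828 and 0.865 as limma adjusted p without the filter).

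Cebpg encodes a short C/EBP protein that has no activation domain of its own and forms dimers with other members. Its brightest probe set had 2732, 4110 and 2988 on knockout-labelled arrays 5, 7 and 8, against 4231, 4286 and 3579 on wild-type arrays 5, 7 and 8. The second had 685, 659 and 781 on knockout-labelled arrays against 853, 809 and 966 on wild-type arrays, without overlap. The differences were -0.32 ± 0.18 and -0.30 ± 0.20 (limma adjusted p = 0.376 and 0.444). The dimmest had the opposite sign, at 0.24 ± 0.25, and correlated at -0.87 with the second over the 6 arrays. The probe sets of Cebpg thus disagreed in direction, and none passed.

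Cebpa and Cebpg are close neighbours on chromosome 7, with only 1 annotated gene, Gm45095, between them in the RefSeq GRCm38.p6 table. Their upstream windows are shown because these C/EBP genes adjoin each other, and that of Irf8 because Irf8, a factor known for its monocyte role, had the smallest difference of the 18 probe sets. RefSeq windows were found for 6 of the 9 genes, 8 windows in all. Each sequence is the 250 bases before the annotated start, on the gene's strand, with matches to the short core of the Gfi1 motif, AATC on either strand, in capitals. The Cebpa window is chr7:35119043-35119292 on the plus strand, that of Cebpg chr7:35056567-35056816 on the minus strand, and the printed window of Irf8 chr8:120736108-120736357 on the plus strand.
Cebpa: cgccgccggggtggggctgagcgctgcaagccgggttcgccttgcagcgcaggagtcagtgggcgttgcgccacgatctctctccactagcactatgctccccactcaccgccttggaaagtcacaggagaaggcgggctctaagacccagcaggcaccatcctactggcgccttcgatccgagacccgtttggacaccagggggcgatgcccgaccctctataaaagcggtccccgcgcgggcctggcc
Cebpg: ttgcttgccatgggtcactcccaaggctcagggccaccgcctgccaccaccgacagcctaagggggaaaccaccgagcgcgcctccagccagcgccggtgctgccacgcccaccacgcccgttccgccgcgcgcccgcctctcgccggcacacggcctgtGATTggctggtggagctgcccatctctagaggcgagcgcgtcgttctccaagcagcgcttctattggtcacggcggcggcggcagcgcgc
Irf8: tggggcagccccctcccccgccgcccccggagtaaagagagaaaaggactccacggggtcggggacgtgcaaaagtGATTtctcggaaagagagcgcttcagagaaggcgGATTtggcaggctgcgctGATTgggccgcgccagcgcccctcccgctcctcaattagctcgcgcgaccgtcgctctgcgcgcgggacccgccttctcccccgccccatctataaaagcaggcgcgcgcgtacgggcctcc

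The Cebpa window held 0 matches to the Gfi1 core, that of Cebpg 1 and the printed window of Irf8 3. Another Irf8 window, not printed, held 1. Such a match occurs in 69.0% of all 32851 windows of this length, and it is a match of letters only. The C/EBP letters TTNNGCAA (9.56% of windows), the PU.1 letters GAGGAA (23.3%) and the RUNX letters TGTGGT (14.0%), each searched on both strands, were in none of the 3 windows printed. GAGGAA was found once in the Irf4 window and once in one of the 2 Runx1 windows.

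Spi1, which encodes PU.1, lay slightly higher on the knockout-labelled arrays, with no call. Its probe set had signals of 809, 665 and 735 on knockout-labelled arrays 5, 7 and 8, against 634, 517 and 652 on wild-type arrays 5, 7 and 8. The groups did not overlap, although knockout-labelled array 7 and wild-type array 8 nearly met. The means were 736 ± 71.8 and 601 ± 73.3 (SD, n = 3 each), and the difference of 0.29 ± 0.21 had a 95% interval of -0.16 to 0.74 (limma adjusted p = 0.494).

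Irf8, which is required for monocytes and several dendritic cells and restrains granulocyte output, differed little. The brighter probe set had signals of 3488, 4896 and 4117 on knockout-labelled arrays 5, 7 and 8, against 3318, 4140 and 4297 on wild-type arrays 5, 7 and 8. The groups overlapped, and the difference of 0.08 ± 0.18 had a 95% interval of -0.30 to 0.47 (limma adjusted p = 0.856). The other probe set had 1104, 1086 and 1025 on knockout-labelled arrays and 966, 926 and 886 on wild-type arrays. It was higher in all 3 knockout-labelled samples and varied little within a group, with a difference of 0.21 ± 0.18 that did not pass (limma adjusted p = 0.589). The 2 probe sets correlated at -0.01 over the 6 arrays.

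Irf4, a relative of Irf8 that acts in lymphocytes, plasma cells and dendritic cells, varied more within the groups than between them. Its brighter probe set had signals of 921, 280 and 302 on knockout-labelled arrays 5, 7 and 8, against 520, 737 and 318 on wild-type arrays 5, 7 and 8. Knockout-labelled array 5 was the highest of the 6, and the difference stood at -0.21 ± 0.41 (95% interval -1.08 to 0.67, limma adjusted p = 0.843), or at -0.74 without that array and 0.09 without knockout-labelled array 7. The second probe set, not tested, had 166, 181 and 148 on knockout-labelled arrays and 291, 189 and 107 on wild-type arrays. It overlapped between the groups as well.

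Runx1, the DNA-binding partner of CBFβ, had 5 probe sets, of which 2 bright ones lay lower on the knockout-labelled arrays without a call. The brightest had 3163, 2597 and 1625 on knockout-labelled arrays 5, 7 and 8, against 3190, 3725 and 2968 on wild-type arrays 5, 7 and 8. Knockout-labelled array 8 was the lowest, and the groups overlapped. The second had 566, 791 and 542 on knockout-labelled arrays, against 896, 1004 and 722 on wild-type arrays. These 2 differed by -0.46 ± 0.22 and -0.46 ± 0.23, with 95% intervals of -0.95 to 0.02 for both (limma adjusted p = 0.277 and 0.281). With the replicate block their unadjusted p-values were 0.0296 and 0.0350 and the limma adjusted p-values 0.160 and 0.175, and without knockout-labelled array 8 the first stood at -0.19. The next pair by brightness stood at -0.20 ± 0.28 and 0.10 ± 0.24 (limma adjusted p = 0.760 and 0.880). The dimmest had 27.8, 43.8 and 36.5 on knockout-labelled arrays, all below the control level, against 25.7, 159 and 208 on wild-type arrays, where 2 of 3 exceeded it. Its groups overlapped through wild-type array 5.

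**Figure D2:**
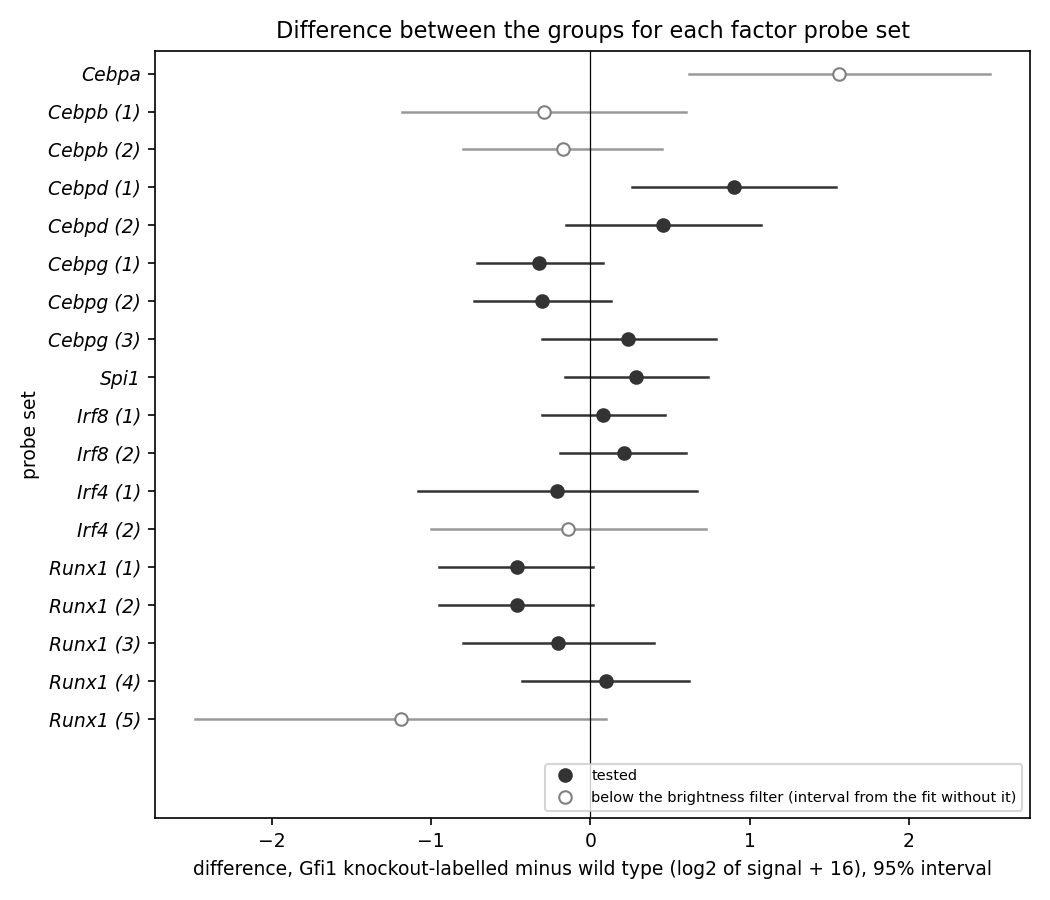
Difference between knockout-labelled and wild-type arrays (log2 of signal + 16) with its 95% interval for the 18 probe sets, numbered by falling signal within a gene, and open circles for the 5 below the brightness filter. The intervals of Cebpa (0.62 to 2.51) and Cebpd (1) (0.26 to 1.54) lie above 0, neither passed after adjustment over all probe sets, and the other 16 intervals include 0.

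The genes whose pattern was most like that of a factor were taken for the 2 factors with the smallest p among brightest tested probe sets, Cebpd and Runx1, as Pearson correlation of log2 values over the 6 arrays. For Cebpd the 5 nearest genes were Vdac1 (0.997), Pfdn6 (0.992), Ndufb6 (0.991), Pgam1 (0.991) and Tmem147 (0.990). Pgam1, a glycolytic enzyme, had signals of 8963, 8669 and 10855 on knockout-labelled arrays and of 5541, 4107 and 6688 on wild-type arrays. Its order matched that of Cebpd among the wild-type arrays, while knockout-labelled arrays 5 and 7 stood in the opposite order. For Runx1 they were Otub2 (0.988), Lair1 (0.984), Kif3b (0.980), Slco2a1 (0.980) and Rgs5 (0.978). Kif3b, a kinesin motor subunit, had 738, 605 and 389 on knockout-labelled arrays and 663, 746 and 647 on wild-type arrays, with knockout-labelled array 8 lowest as for Runx1. With 6 arrays that share the group difference, such values are descriptions only.

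Relatives and partners of the factors lay lower on the knockout-labelled arrays more often than higher. Of 26 tested genes on a list of other ETS, IRF, bZIP, Tribbles and RUNX-CBF genes, each taken by its brightest probe set, 2 fell, 0 rose and 24 did not pass. Over all 8239 genes tested in this way 2.48% fell and 1.42% rose. Of the 26, 21 lay below 0, as did 4182 of all 8239 genes. The median was -0.28, against -0.01 for all genes. It was -0.16 without knockout-labelled array 8, -0.17 on specific probe sets and -0.18 among the brightest 40%. In the other direction it was -0.36 without knockout-labelled array 5 and -0.34 without wild-type array 7. Ets1, an ETS factor of lymphoid cells, fell by 1.19 ± 0.22 (SE) on the log2 scale, with 265, 335 and 349 on knockout-labelled arrays against 809, 736 and 677 on wild-type arrays (limma adjusted p = 0.0120, and 0.0553 without wild-type array 7). Irf9, the DNA-binding subunit of the interferon-activated ISGF3 complex, fell by 0.77 ± 0.19, with 782, 718 and 881 against 1330, 1314 and 1440 (limma adjusted p = 0.0393). Both genes were separated without overlap, but Irf9 passed with none of the 6 arrays left out (0.0695 to 0.134).

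Close relatives of the 9 factors were mostly without a call. Elf1, an ETS factor, stood at -0.65 ± 0.20 (limma adjusted p = 0.0873, and 0.0390 with the replicate block), and Irf1, an interferon-induced relative of Irf8, at -0.62 ± 0.20 (0.0989). Cbfa2t2, a corepressor of the ETO family, stood at -0.60 ± 0.19 (0.109), and Irf7, which amplifies type I interferon, at -0.69 ± 0.31 (0.236). Spib, the closest relative of PU.1, stood at -0.59 ± 0.33 (0.359) and Ddit3, a C/EBP-related factor of the stress response, at -0.58 ± 0.26 (0.229). Irf2, Irf5 and Cbfb differed by -0.15 ± 0.30, -0.11 ± 0.21 and -0.11 ± 0.14, with limma adjusted p-values of 0.844, 0.845 and 0.726. Runx3, a RUNX factor of T cells, was at 38.5, 42.3 and 71.1 on knockout-labelled arrays and at 54.6, 23.1 and 28.2 on wild-type arrays, below the control level throughout. With the replicate block 4 genes of the list fell, the added ones being Elf1 and the AP-1 gene Fos (0.0256), which was chosen after its values were seen.

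Among 29 tested factors of other lineages and fate decisions, 3 fell, 1 rose and 25 did not pass. The median was -0.24, and it was -0.10 without wild-type array 8 and -0.36 among the brightest 40% of probe sets. Bach2, a B-lymphoid repressor that opposes myeloid genes, fell by 1.29 ± 0.28, with 308, 418 and 494 on knockout-labelled arrays against 821, 1518 and 796 on wild-type arrays (limma adjusted p = 0.0224). Notch1, the receptor that directs T cell fate, fell by 0.91 ± 0.21 (0.0334), and Egr1, an immediate early factor that favours macrophages, fell by 1.12 ± 0.22 (0.0142). Id1, an inhibitor of E proteins that is expressed in myeloid progenitors, rose by 1.29 ± 0.27, with 766, 520 and 414 against 201, 234 and 213 (0.0209). These 4 genes showed no overlap between the groups, and each lost its call in limma without wild-type array 7 or knockout-labelled array 7, among others (up to 0.0923 for Egr1, 0.0806 for Id1, 0.116 for Bach2 and 0.150 for Notch1). Hoxa9 stood at -0.50 ± 0.13 (0.0594, and 0.0295 with the replicate block), and 5 genes fell with the block, with Klf4 (0.0382, chosen after its values were seen) as the other added gene. The GATA factors Gata1 and Gata2 stood at 0.00 ± 0.23 and 0.23 ± 0.17 (0.997 and 0.519).

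**Figure D3:**
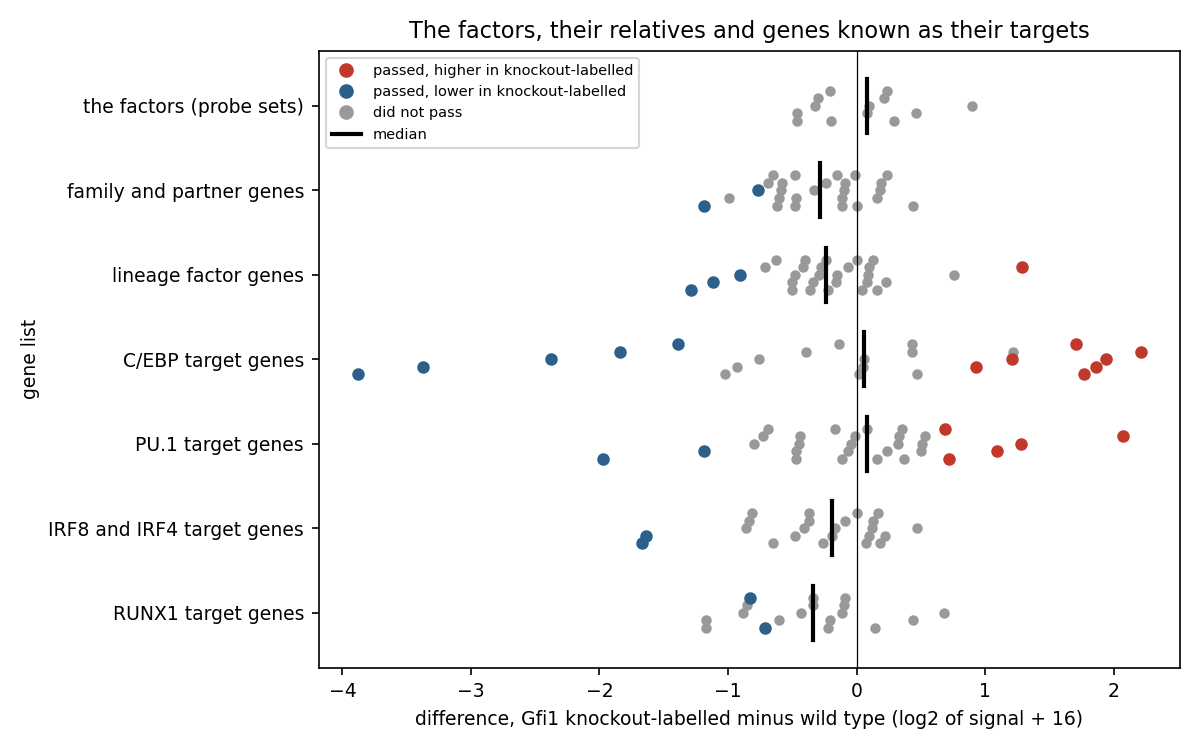
Difference between knockout-labelled and wild-type arrays (log2 of signal + 16) for the 13 tested factor probe sets and for the tested genes of 6 lists, by brightest probe set, with genes past the threshold in colour and the median as a bar. None of the factor probe sets is coloured, while 7 genes known as C/EBP targets lie coloured above 0 and 5 below it.

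Genes known from other work as targets of C/EBP factors moved in both directions. Of 24 tested genes 7 rose, 5 fell and 12 did not pass, and the median was 0.05. The median was 0.43 among the brightest 40% of probe sets and 0.23 without wild-type array 7. Mpo, the gene of myeloperoxidase, a primary granule enzyme, rose by 0.93 ± 0.21, with 32139, 29663 and 26909 on knockout-labelled arrays against 13036, 12096 and 23370 on wild-type arrays (limma adjusted p = 0.0252). The primary granule proteases Prtn3 and Ctsg, the membrane protein gene Ms4a3 and Hp, haptoglobin, picked for mention with their values known, rose by 1.21 ± 0.28, 1.86 ± 0.34, 1.71 ± 0.37 and 1.77 ± 0.35 (0.0104 to 0.0330 in limma). On wild-type array 8 all 5 of these genes were higher than on the other wild-type arrays. Mmp8, the neutrophil collagenase, rose by 2.21 ± 0.25, with 1775, 3410 and 2178 against 455, 623 and 437, and Socs3, a feedback inhibitor of cytokine signals, by 1.94 ± 0.27, with 778, 636 and 1209 against 186, 234 and 208. For Mmp8 and Socs3, wild-type array 8 did not stand apart. Elane, neutrophil elastase, had 1182, 1873 and 1956 on knockout-labelled arrays against 364, 427 and 2079 on wild-type arrays and stood at 1.22 ± 0.48 (0.175, and 9.07e-04 without wild-type array 8).

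The 5 C/EBP targets that fell were Camp, Ngp, Ltf, S100a8 and S100a9. Camp, a cathelicidin, fell by 3.88 ± 0.48, with 302, 65.5 and 76.8 on knockout-labelled arrays against 3835, 1166 and 1680 on wild-type arrays (limma adjusted p = 9.17e-04). Only 1 of 3 knockout-labelled arrays exceeded its control level for Camp, and the size of this fall rests partly on signals below it. Ngp, a neutrophil granule protein, fell by 3.37 ± 0.23, with 716, 605 and 502 against 9307, 5488 and 5084 (8.15e-06), and Ltf, lactoferrin, fell by 2.38 ± 0.42 (0.00838). S100a8 and S100a9, picked for mention with their values known, fell by 1.39 ± 0.36 and by 1.84 ± 0.38 (0.0490 and 0.0196), and S100a8 overlapped between the groups. The gelatinase gene Mmp9 also fell with the replicate block (0.0347, against 0.0944 without the block). Lcn2, a secondary granule gene of the same list, stood at -0.39 ± 0.29 (0.517), and Mmp9 and Lcn2 were picked for mention with their values known. Sample number 5 gave the highest value within each group for Camp, Ngp, Ltf, S100a8 and S100a9. Csf3r, the G-CSF receptor and a known target of C/EBPα, had 975, 913 and 1047 on knockout-labelled arrays and 923, 1142 and 779 on wild-type arrays, a difference of 0.06 ± 0.20 (0.914).

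**Figure D4:**
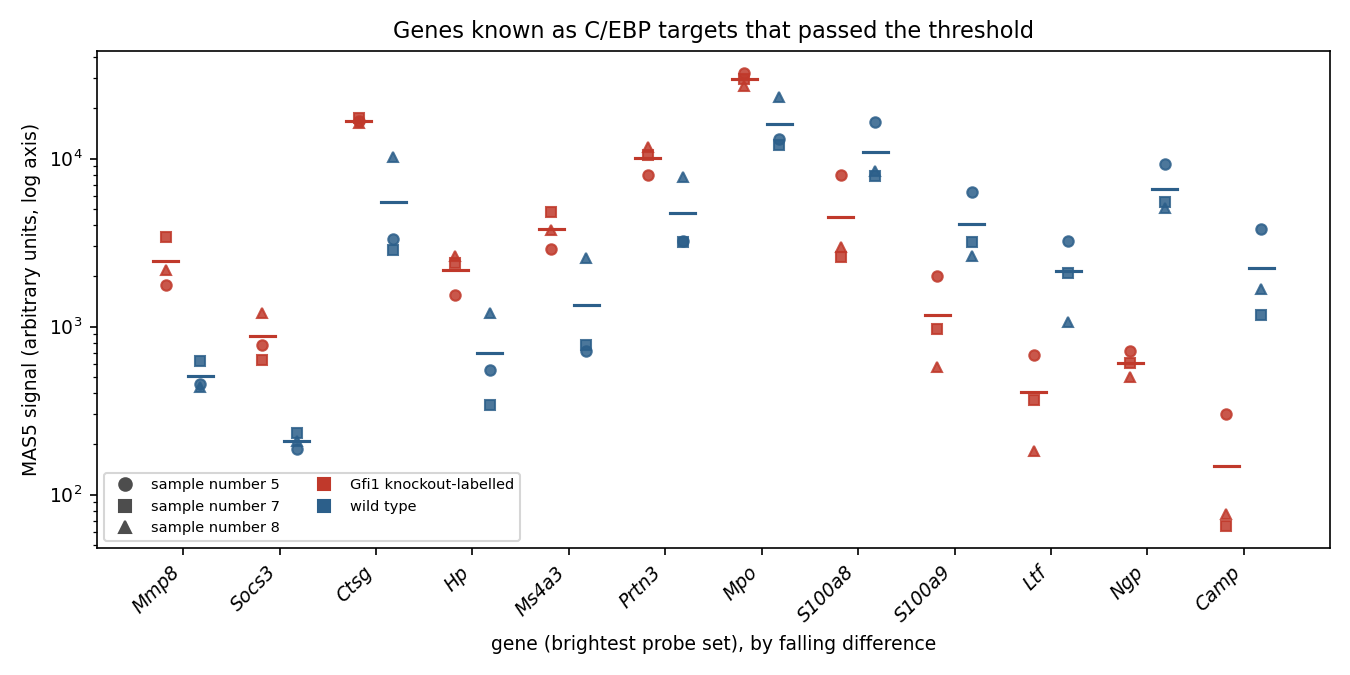
MAS5 signal (log axis, arbitrary units) of the 12 genes known as C/EBP targets that passed the threshold, on each of the 6 arrays, knockout-labelled left and wild type right, with group means as bars and sample numbers as symbols. The 7 genes at left rose and the 5 at right fell in knockout-labelled cells, and wild-type array 8 lies nearest to the knockout-labelled arrays for Ctsg, Hp, Ms4a3, Prtn3 and Mpo.

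Of the 26 C/EBP target genes on the array, 7 are also on the list of neutrophil markers. The summed signal of 11 neutrophil markers ran from 6250 to 14047 on knockout-labelled arrays and from 21392 to 42311 on wild-type arrays. Stfa3 was at or below the control level on all arrays. Of 9 tested markers 5 fell, and these are the same 5 genes as the C/EBP targets that fell. The marker list therefore gives no separate reading of those falls. Cd177, a tested marker outside the C/EBP list, stood at -1.08 (limma adjusted p = 0.0867). Mcpt8, also tested and outside the C/EBP list, stood at 0.43 (limma adjusted p = 0.417). It is on the mast cell and basophil list too, so it is no separate reading of neutrophils, although the neutrophil sum includes it. The part of mature neutrophils in the falls of the C/EBP targets was not tested. The calls of Mpo, Prtn3, Ctsg, Ms4a3 and Hp were lost without knockout-labelled array 8 and, apart from Ctsg, without knockout-labelled array 7 and wild-type array 7 too (limma adjusted p up to 0.150 for Prtn3). The calls of S100a8 and S100a9 were lost without knockout-labelled arrays 7 or 8 or wild-type arrays 5 or 7 (up to 0.208). S100a8 also lost its call with a pseudocount of 1 (0.0507), median centring (0.0547), quantile normalization (0.0561) and cyclic loess (0.0550). Camp, Ngp, Ltf, Mmp8 and Socs3 passed with any 1 array left out.

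Genes known as PU.1 targets also moved both ways, although Spi1 itself was not called. Of 29 tested genes 5 rose, 2 fell and 22 did not pass, with a median of 0.08 that ran from -0.01 without wild-type array 5 to 0.24 among the brightest 40% of probe sets. Csf2rb, a receptor chain that IL-3 and GM-CSF signalling have in common, rose by 2.07 ± 0.23, with 1053, 1599 and 1328 on knockout-labelled arrays against 278, 264 and 368 on wild-type arrays (limma adjusted p = 4.95e-04). Clec7a, the beta-glucan receptor Dectin-1, rose by 1.28 ± 0.19 (0.00289), and Fcgr3, a low-affinity IgG receptor, by 1.09 ± 0.25 (0.0285). Csf1r, the M-CSF receptor and a classic PU.1 target, rose by 0.69 ± 0.17, with 7267, 9252 and 8242 against 4205, 6187 and 5038 (0.0443). Tyrobp, a signalling adaptor named after its values were seen, rose by 0.72 ± 0.17 (0.0332). The 2 that fell are receptors of lymphoid priming. Il7r fell by 1.97 ± 0.28, with 649, 596 and 381 against 2933, 2391 and 1365 (0.00217), and Flt3 fell by 1.19 ± 0.19 (0.00515).

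Csf2rb, Clec7a, Il7r and Flt3 passed with any 1 array left out, while Fcgr3 lost its call without 4 of the arrays and Csf1r and Tyrobp without 5 of them, Csf1r passing only without wild-type array 7 and Tyrobp only without wild-type array 8 (limma adjusted p up to 0.127, 0.153 and 0.145). With the replicate block 4 PU.1 targets fell, with Ptprc (0.0399) and Plek (0.0377) added, both of them picked with their values known. The summed signal of 12 monocyte and macrophage markers was 18244 to 24753 on knockout-labelled arrays and 10265 to 15189 on wild-type arrays. Of 10 tested 4 rose (Csf1r, Ccr2, Ms4a6c and Ccl6), and Marco was at or below the control level on all arrays. This list shares 4 genes with the PU.1 list. Of these Csf1r, itself one of the PU.1 rises, is a large part of the sums. The other shared genes, Fcgr1, Adgre1 and Cd68, did not pass (limma adjusted p = 0.333, 0.270 and 0.587). The part of monocyte and macrophage markers in the rises was not tested.

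Genes known as targets of IRF8 or IRF4 lay lower or without a call. Of 23 tested genes 2 fell, 0 rose and 21 did not pass, with a median of -0.19 that ran from -0.13 to -0.28 over the alternatives. Iigp1, an interferon-inducible GTPase, fell by 1.67 ± 0.20, with 476, 469 and 574 on knockout-labelled arrays against 1917, 1606 and 1423 on wild-type arrays (limma adjusted p = 8.36e-04). Zbtb20, a repressor expressed in plasma cells and B cells, fell by 1.64 ± 0.24, with 591, 497 and 440 against 1237, 2263 and 1497 (0.00257). Both passed with any 1 array left out. Il18, Il15 and Usp18 stood at -0.65 ± 0.18, -0.84 ± 0.22 and -0.81 ± 0.27 (0.0660, 0.0555 and 0.118). Blnk also fell with the replicate block (0.0473, against 0.165 without the block), which was picked with its values known. Dendritic cell markers summed to 6799 to 9134 on knockout-labelled arrays and to 11312 to 13894 on wild-type arrays over 11 genes. Of 9 tested 2 were lower (Flt3 and Ccr9), and none of the 11 was at or below the control level throughout. Flt3, also an LSK marker and on the PU.1 list, had 2242, 2030 and 2626 against 5847, 6125 and 3976, a large part of these sums. The 2 markers shared with the IRF list, Cd74 and Xcr1, stood at 0.10 (limma adjusted p = 0.880) and -0.02 (not tested). The part of dendritic cell markers in the falls was not tested.

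Among 18 tested genes known as RUNX1 targets 2 fell, 0 rose and 16 did not pass, and the median was -0.34, which ran from -0.22 to -0.47 over the alternatives. Kit, itself one of the sorting markers, fell by 0.71 ± 0.17, with 3512, 4669 and 4496 on knockout-labelled arrays against 5871, 7052 and 7774 on wild-type arrays (limma adjusted p = 0.0381). Prkcq, a protein kinase C of T cells and platelets, fell by 0.83 ± 0.20 (0.0340). With 1 array left out Kit passed only without wild-type array 5 and Prkcq only without wild-type array 8 (up to 0.132 and 0.150). Ctla4, Sla and Nrp1 stood at -1.17 ± 0.37, -0.85 ± 0.25 and 0.68 ± 0.23 (0.103, 0.0812 and 0.127). Sla passed with the replicate block (0.0431), which made 3 genes that fell. Megakaryocyte and platelet markers, of which this list holds 3, summed to 3837 to 5908 on knockout-labelled arrays and to 3413 to 5354 on wild-type arrays, and 0 of 6 tested passed in limma.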

How the data were processed

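LSK cells were profiled on 6 single-colour Affymetrix arrays, 1 per sample. The authors made the deposited intensity values with MAS5, per the submitters' processing notes, as 1 linear value for each probe set. Its version is not given in the sources used here. All columns were already scaled to a trimmed mean of 1000.33 to 1000.37. Amplification in 2 rounds shortens the RNA, so probe sets far from a transcript's 3' end may read low. The number of arrays limits the precision.

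Of 22690 probe sets, 64 AFFX controls were left out. Of the remaining 22626, 20380 had 1 gene symbol, 691 several and 1555 none. The annotation can be old, and 20351 matched RefSeq's gene table. log2(signal + 16) was used without further normalization, and the 13575 probe sets with the highest mean of it (60%, above about 198 in signal) were fitted with limma 3.58.1 in R 4.3.3 (eBayes, trend = TRUE, two-sided, Benjamini-Hochberg over all of them). SEs of untested probe sets come from the fit without the filter. The groups came from the sample titles, and the sample numbers were checked as pairs. After subtraction of group means, the correlation was 0.159, 0.168 and 0.238 for the numbers 5, 7 and 8 and -0.134 to -0.0307 between different numbers. Deviations from a group mean sum to 0, so the negative values follow from the positive ones and add no evidence of pairing. The labels do not say what a shared sample number marks. The main fit did not use the sample numbers. They were taken as pairs in the replicate block, an alternative, and in the differences given per sample number for Cebpa and Cebpb. Alternatives were a replicate block, other filters, pseudocounts of 1 and 64, 3 between-array normalizations, eBayes without trend, specific probe sets only and each array left out.

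The members, lists and tests were chosen with earlier results of these data known. Every member probe set is described, as are Gfi1, the 5 genes most correlated with each of 2 members, up to 5 genes of every list ranked by p, and Csf1r, Csf3r, Elane, Mpo, Ddit3, Irf1, Irf2, Irf5, Irf7, Spib, Ets1, Cbfb, Runx3, Gata1, Gata2 and Kit. Cebpz, Runx2 and Ly6a had no probe set of their own symbol.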

Additional observations from a re-analysis of the deposited data

How the results depend on the processing

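No member probe set passed the limma threshold in any of the 17 alternatives (0 higher and 0 lower in each). Of 224 recomputed member differences 219 kept their direction, and 5 changed sign. These were the first Irf8 probe set, at -0.04 without knockout-labelled array 7 and -0.03 without wild-type array 5, and the first Irf4 probe set, at 0.09, 0.04 and 0.07 without knockout-labelled arrays 7 and 8 and wild-type array 7; with single arrays left out these 2 ran from -0.04 to 0.20 and from -0.74 to 0.09.

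Counts of calls moved more, and the causes were not tested beyond what fewer arrays or other filters imply. Over all probe sets 320 were higher and 479 lower with the replicate block, 69 and 119 without the brightness filter, 57 and 124 with eBayes without trend, 127 higher on specific probe sets only, and 193 lower with median centring. With single arrays left out, higher calls ran from 34 (without knockout-labelled array 8) to 266 (without wild-type array 8) and lower calls from 90 (without wild-type array 7) to 282. Family and partner genes fell in 4 cases with the block, in 1 without the filter, among the brightest 40%, with median centring, quantile normalization, eBayes without trend or specific probe sets, and in 0 to 2 with single arrays left out. Lineage factors fell in 5 cases with the block, in 0 without the filter or without trend and in 0 to 4 with single arrays left out, and rose in 0 without the filter, among the brightest 40% or on specific probe sets and in 0 to 1 with arrays left out. C/EBP targets numbered 2 higher and 2 lower without the filter, 2 and 3 without trend, and 2 to 8 and 3 to 6 with arrays left out. PU.1 targets higher numbered 3 without the filter or with median centring, 2 without trend, 8 over every probe set and 2 to 4 with arrays left out, and lower 4 with the block and 2 to 4 with arrays left out. IRF targets lower numbered 1 on specific probe sets. RUNX1 targets lower numbered 0 without the filter, with median centring, without trend or on specific probe sets, and 0 to 4 with arrays left out. Of 96 list medians 80 moved by less than 1 SD between arrays, but that SD was not the same for every list. The PU.1 median counted as moved at 0.07 with quantile normalization, against 0.08 in the main fit. The C/EBP median did not count as moved at 0.23 without wild-type array 7, against 0.05. The count of 80 is therefore no measure of how stable the medians were. Median centring also ended the calls of Irf9 (0.0930), Notch1 (0.0518), Csf1r (0.0528), Tyrobp (0.0508), Prkcq (0.0589) and Kit (0.103), quantile normalization those of Irf9 (0.0526) and Csf1r (0.0549), and cyclic loess that of Csf1r (0.0630). Signals near the control level, as for Cebpa and Cebpb, limit what can be measured.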
